A study of Mus musculus with 2 samples.

Results

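The locus analysed here is the stretch of mouse chromosome 12 from 40 to 45 Mb (assembly mm9) that holds Zfp277, Dock4 and Immp2l. All ATAC-seq peaks in this stretch were taken, which were 48 of the 90445 peaks of control enteroids and 56 of the 71282 peaks of Taf4-inactivated enteroids, or 104 of 161727 in all. The stretch was chosen by the count of strong peaks found solely after Taf4 loss, which was the highest of any window of its length, so that this count and the comparison it comes from describe the locus and test nothing. ATAC-seq maps open chromatin by letting a transposase insert sequencing adapters into accessible DNA. Enteroids are epithelial cultures, grown here from ileal crypts of 4-month-old C57Bl6/129sv mice. Both cultures carried floxed Taf4 alleles (Taf4 lox/lox) and received 1 µM 4-hydroxytamoxifen (4-OHT) for 3 days. The Taf4-inactivated culture also carried VilCreERT2, a Cre recombinase made in intestinal epithelium from the villin promoter and switched on by 4-OHT. The control culture, given as WT in the labels, had no Cre, so that loss of Taf4 and active Cre cannot be told apart. There was 1 library per genotype, and no p-value between genotypes could be computed.

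Taf4 is a subunit of TFIID, the general factor that assembles with RNA polymerase II at start sites, and distal open chromatin often marks enhancers. Zfp277 encodes a zinc finger protein that works with Polycomb proteins at the Ink4a/Arf locus. Dock4 encodes an activator of small GTPases of the Rac and Rap kind, and has been linked to Wnt signalling. Immp2l encodes a subunit of a peptidase of the inner mitochondrial membrane. On mm9, Zfp277 (ENSMUSG00000055917.7, minus strand) spans 41041633 to 41172377, Dock4 (ENSMUSG00000035954.8, plus strand) spans 41172640 to 41573073, and Immp2l (ENSMUSG00000056899.3, plus strand) spans 41750677 to 43056575 of chromosome 12. The start sites of Zfp277 and Dock4 lay 263 bp apart on opposite strands. The other 6 coding genes of the stretch were Arl4a, Scin, Gm889, Ifrd1 and Gm7008 on the near side of Zfp277, and Lrrn3 inside Immp2l.

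A peak had a partner when it shared 1 bp or more with any peak listed for the other genotype, and it was strong when its fold over local background was in the top 10% of its own list. A start site peak lay within 1 kb of an annotated transcript start, and the others were distal. After Taf4 inactivation, 8 strong peaks of the locus had no control partner. The central 300 bp of the 5 with the highest fold follow, because these are the regions for which the locus was chosen. Capitals mark the recognition sequence of GATA factors, zinc finger proteins that act in intestinal epithelium (AGATAA or its variants with T in the first place or G in the last, on either strand), and that of AP-1, the Jun and Fos dimer (TGACTCA or TGAGTCA).

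Scin intron 3, chr12:40840631-40840930, plus strand: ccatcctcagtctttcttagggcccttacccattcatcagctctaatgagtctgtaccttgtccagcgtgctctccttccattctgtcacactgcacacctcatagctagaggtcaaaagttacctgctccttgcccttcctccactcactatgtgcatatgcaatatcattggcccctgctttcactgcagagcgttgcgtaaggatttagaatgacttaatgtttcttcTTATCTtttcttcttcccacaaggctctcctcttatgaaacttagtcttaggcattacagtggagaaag
upstream of Scin, chr12:40866333-40866632, plus strand: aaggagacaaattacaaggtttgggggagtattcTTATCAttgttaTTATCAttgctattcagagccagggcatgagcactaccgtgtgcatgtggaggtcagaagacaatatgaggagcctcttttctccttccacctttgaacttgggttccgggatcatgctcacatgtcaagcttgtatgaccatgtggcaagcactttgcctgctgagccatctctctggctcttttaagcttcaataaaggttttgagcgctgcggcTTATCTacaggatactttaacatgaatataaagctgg
Immp2l intron 3, chr12:41808493-41808792, plus strand: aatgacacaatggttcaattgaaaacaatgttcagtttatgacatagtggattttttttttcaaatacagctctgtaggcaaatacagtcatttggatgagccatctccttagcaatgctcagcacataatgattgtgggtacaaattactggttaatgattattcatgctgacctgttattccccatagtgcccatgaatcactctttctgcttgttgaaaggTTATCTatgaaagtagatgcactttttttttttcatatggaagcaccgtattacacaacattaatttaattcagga
Zfp277 intron 4, chr12:41074865-41075164, plus strand: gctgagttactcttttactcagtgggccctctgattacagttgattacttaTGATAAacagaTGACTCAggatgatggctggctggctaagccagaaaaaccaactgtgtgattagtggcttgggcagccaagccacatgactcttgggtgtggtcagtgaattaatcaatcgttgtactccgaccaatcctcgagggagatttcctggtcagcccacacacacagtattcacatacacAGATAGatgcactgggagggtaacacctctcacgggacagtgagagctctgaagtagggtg
Zfp277 intron 4 and exon 5, chr12:41061913-41062212, plus strand: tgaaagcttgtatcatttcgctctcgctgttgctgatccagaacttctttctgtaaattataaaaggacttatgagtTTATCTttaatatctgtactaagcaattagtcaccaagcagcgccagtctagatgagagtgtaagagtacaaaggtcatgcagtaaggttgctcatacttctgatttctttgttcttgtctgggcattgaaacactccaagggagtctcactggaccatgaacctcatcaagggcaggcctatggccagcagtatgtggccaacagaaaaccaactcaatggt

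Each of these 5 windows held at least 1 GATA sequence, and that at 41074865 in Zfp277 intron 4 also held an AP-1 sequence. The window of Immp2l intron 3 is wider than its peak, which covered 266 of the 300 bases.

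The start sites of the 3 genes were open in both lists, and the sequences at Dock4 and Immp2l are shown for comparison with the distal regions. The windows run from 250 bp before to 50 bp after the start. Capitals mark the GC box (GGGCGG) and the CCAAT box (CCAAT) on either strand, which are common in promoters.

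Dock4, chr12:41172390-41172689, plus strand: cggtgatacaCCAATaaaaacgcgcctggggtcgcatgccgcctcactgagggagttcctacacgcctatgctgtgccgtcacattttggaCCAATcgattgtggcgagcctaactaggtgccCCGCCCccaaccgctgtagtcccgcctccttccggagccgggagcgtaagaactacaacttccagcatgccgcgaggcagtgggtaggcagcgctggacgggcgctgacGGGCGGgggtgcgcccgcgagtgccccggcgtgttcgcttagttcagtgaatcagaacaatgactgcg
Immp2l, chr12:41750427-41750726, plus strand: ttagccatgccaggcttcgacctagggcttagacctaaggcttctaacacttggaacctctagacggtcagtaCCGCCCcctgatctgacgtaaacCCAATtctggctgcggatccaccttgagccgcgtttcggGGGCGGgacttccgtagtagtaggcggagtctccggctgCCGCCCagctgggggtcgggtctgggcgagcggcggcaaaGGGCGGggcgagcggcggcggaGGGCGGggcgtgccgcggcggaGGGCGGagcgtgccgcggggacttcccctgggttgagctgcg

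The Zfp277 window shared 238 bases with that of Dock4, on the other strand. GC boxes numbered 4 in the Zfp277 window, 2 in that of Dock4 and 6 in that of Immp2l. A GC box was present in 43.5% and a CCAAT box in 37.9% of 22350 coding gene windows of this size. The GC content of the 3 windows was 63.3%, 62.3% and 68.0%, against a median of 55.3% for coding genes, while the 5 distal windows above lay between 34.3% and 48.3%.

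The libraries differed in background. Read totals were not used here. A background was solved for every peak from its fold and p. The level of a library was taken as the 5th percentile of this background among its narrowest peaks (10% of the list). It was 12.1 reads (control) and 7.35 reads (Taf4-inactivated). The Taf4-inactivated background was thus 60.5% of that of control, in which a lower read total and a smaller share of reads outside peaks cannot be told apart. At the Arl4a start site, for example, the pileups were 82.0 reads in control and 85.7 after inactivation. To compare peaks, the pileup of reads was divided by this background level of its library, and this ratio is called the peak level. Of 8 epithelial marker genes, 7 had a start site peak in control and 8 in Taf4-inactivated enteroids, while 3 blood cell markers had none in either list. The epithelial peaks were at percentiles of fold from 75.6 to 94.4 in control and from 59.8 to 94.6 after inactivation. Of 4 fibroblast markers, 3 and 4 had a start site peak, with percentiles of fold from 10.7 to 74.3 in control and from 7.10 to 33.3 after inactivation. All 3 neuronal markers had one in both lists, and 1 of 3 endothelial markers had one in control alone. In bulk chromatin, a change in the share of a cell type and a change within cells cannot be told apart, and the part of other cells in the results was not tested.

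The 8 strong peaks without a control partner lay in a span of 970.8 kb, from Scin to the front of Immp2l. The Scin gene, which encodes an actin-severing protein, had 1 of them in its intron 3, 19.9 kb from the gene start (40840622 to 40840940). Another annotated Scin transcript starts 10482 bp from this peak. This peak had the highest fold of the 8, 4.29, and a level of 5.03. The next 2 lay upstream of Scin. One, 5.36 kb from the Scin start (40866175 to 40866791), had a fold of 4.19 and a level of 4.91. The other, 12.4 kb from it (40873167 to 40874381), had a fold of 3.90 and a level of 4.53, and was the widest of the 8 at 1215 bp. Both were intergenic.

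Zfp277 itself held 2 of the 8. One (41074839 to 41075190) was in intron 4, 97.2 kb inside the gene, with a fold of 3.95 and a level of 4.57. An annotated Zfp277 transcript with an internal start begins 4851 bp from it. The other (41061894 to 41062232) overlapped the start of coding exon 5 of the longest transcript, and covered a coding exon of 162 bp that another transcript has within intron 4. It was 110.1 kb inside the gene and 7756 bp from the nearest annotated Zfp277 transcript start, with a fold of 3.95 and a level of 4.53. No control peak lay within 86.1 kb of either peak. In control enteroids the start site peak was the sole peak of the 130.7 kb Zfp277 gene.

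The last 3 peaks were at Immp2l. The peak between Dock4 and Immp2l (41705724 to 41706027) lay 44.7 kb before the Immp2l start, with a fold of 3.90 and a level of 4.54. The other 2 lay in Immp2l intron 3, separated by 2.13 kb. The first (41808510 to 41808775) had a fold of 4.04 and a level of 4.68, and the second (41810909 to 41811433) had a fold of 3.91 and a level of 4.70. Over all 8 peaks, the nearest control peak was 4.89 to 96.8 kb away.

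**Figure D1:**
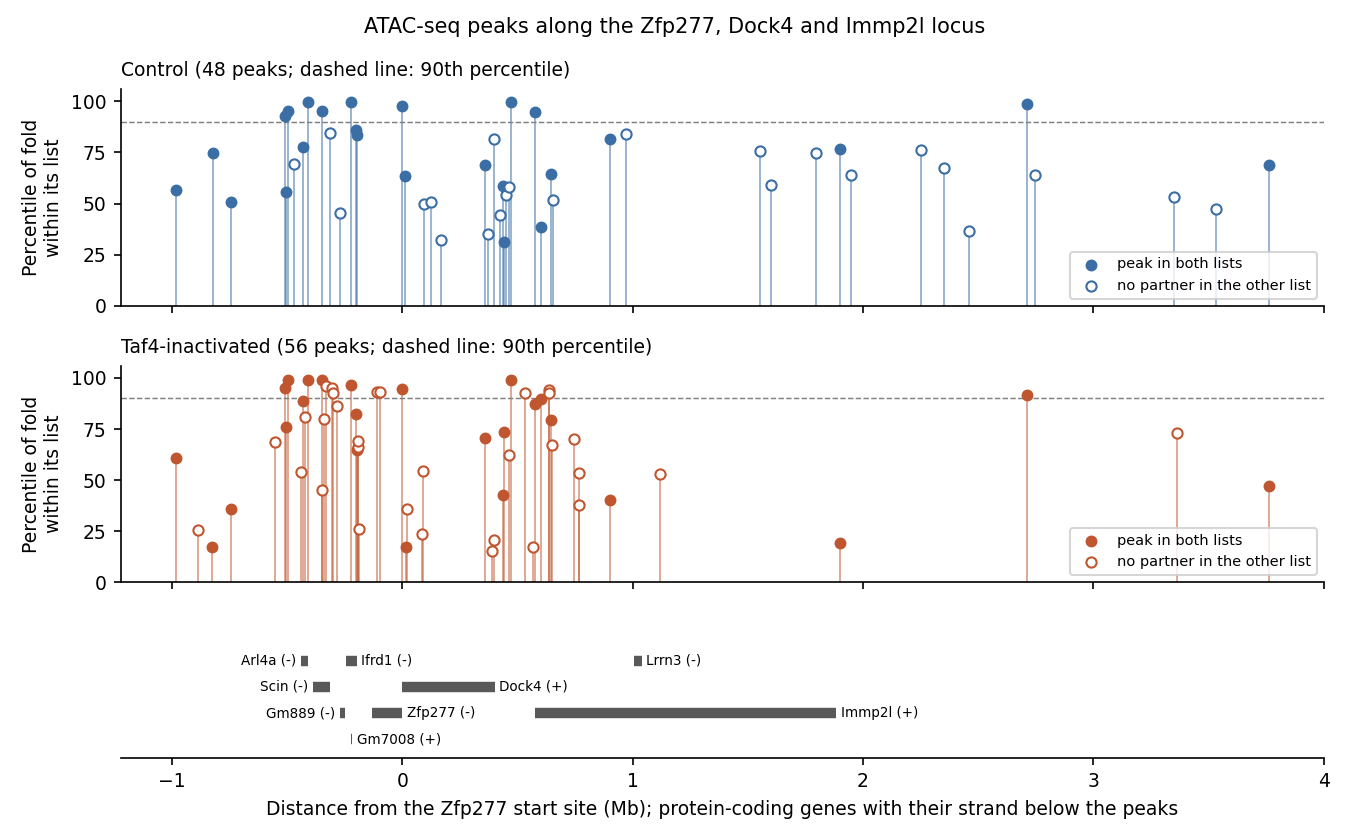
Peaks of control (top) and Taf4-inactivated enteroids (middle) by distance from the Zfp277 start site in Mb, with the percentile of fold within its list on the vertical axis; filled points have a partner in the other list, open points have none, and bars below are coding genes with their strand. Open points above the 90th percentile line number 8 in the Taf4-inactivated list and 0 in control.

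The share of strong peaks without a partner was 8 of 16 (50%, exact Clopper-Pearson 95% interval 24.7 to 75.3%, counting error only) in Taf4-inactivated enteroids and 0 of 9 (0 to 33.6%) in control. Over the whole lists these shares were 5.65% and 2.38%. Nothing is read from this contrast, since it chose the locus. Among strong distal peaks the Taf4-inactivated count was 8 of 13, against 13.2% in the whole list. Ranking by −log10 p in place of fold left 1 strong peak without a partner in the locus, and the top 5% by fold left 2. The last strong peak of the Taf4-inactivated list had a fold of 3.69. Inside this limit, the lowest 3 of the 8 had folds of 3.91, 3.90 and 3.90, and the nearest unpartnered peaks outside it had 3.45 (near Scin), 3.19 (Arl4a intron) and 3.15 (Scin intron). In control the limit was 2.57, and the highest unpartnered peak, at the Scin start site, had 2.39.

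Peaks present in both lists had higher levels after inactivation, with a median ratio of 1.34 over 42491 pairs. The lowest level of any listed peak was 1.98 in control and 2.31 in the other list. Reads below the peak threshold were not used here, so how open the 8 regions were in control was not measured.

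Beyond the strong peaks, 23 of 40 other Taf4-inactivated peaks of the locus had no partner (57.5%, 40.9 to 73.0%), against 43.5% in the whole list. Over all peaks, 31 of 56 Taf4-inactivated peaks (55.4%, 41.5 to 68.7%) and 23 of 48 control peaks (47.9%, 33.3 to 62.8%) were without a partner, against 39.8% and 52.7% in the whole lists. In Taf4-inactivated enteroids the levels of these unpartnered peaks ranged from 2.31 to 5.03, with a median of 3.07. In control they ranged from 2.02 to 2.75, with a median of 2.18. The 31 include the 8 strong peaks for which the locus was chosen, which set the upper end and raise the median. Over the whole lists the medians of unpartnered peaks were 2.80 and 2.29, which differed in the same direction. Most were in introns or between genes: 17 and 12 of the 31 Taf4-inactivated ones, and 9 and 11 of the 23 control ones.

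The excess of Taf4-inactivated peaks was in the gene-rich front of the stretch. From 40 to 42 Mb there were 33 control and 50 Taf4-inactivated peaks, and from 42 to 45 Mb there were 15 and 6. Where −log10 q was 2 or more, the counts were 19 and 39 in the front, and 11 and 4 in the rear. Where it was 5 or more they were 8 and 22 in the front, and 1 and 1 in the rear. The ratios of these counts in the front were 1.52, 2.05 and 2.75 over all peaks and at each threshold. Medians over the 472, 448 and 221 windows of 5 Mb with at least 20 peaks in each list were 0.802, 1.03 and 1.91. More Taf4-inactivated peaks at the highest threshold was thus the usual case in such windows. The locus had too few control peaks to be among those 221. The front holds all 8 strong peaks for which the locus was chosen, and they are counted at each threshold. Its bounds were set after the data had been seen, and it is shorter than the windows. These ratios are therefore a description and test nothing. The rear, made up of the far part of Immp2l and the gene-poor stretch behind it, held more control peaks over all peaks and at the lower threshold. The part of the background difference in these counts was not tested. The 500 kb bin around Scin and Ifrd1 had the most Taf4-inactivated peaks, 21 against 12 in control, followed by the bin around the end of Dock4 and the start of Immp2l with 18 against 13.

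**Figure D2:**
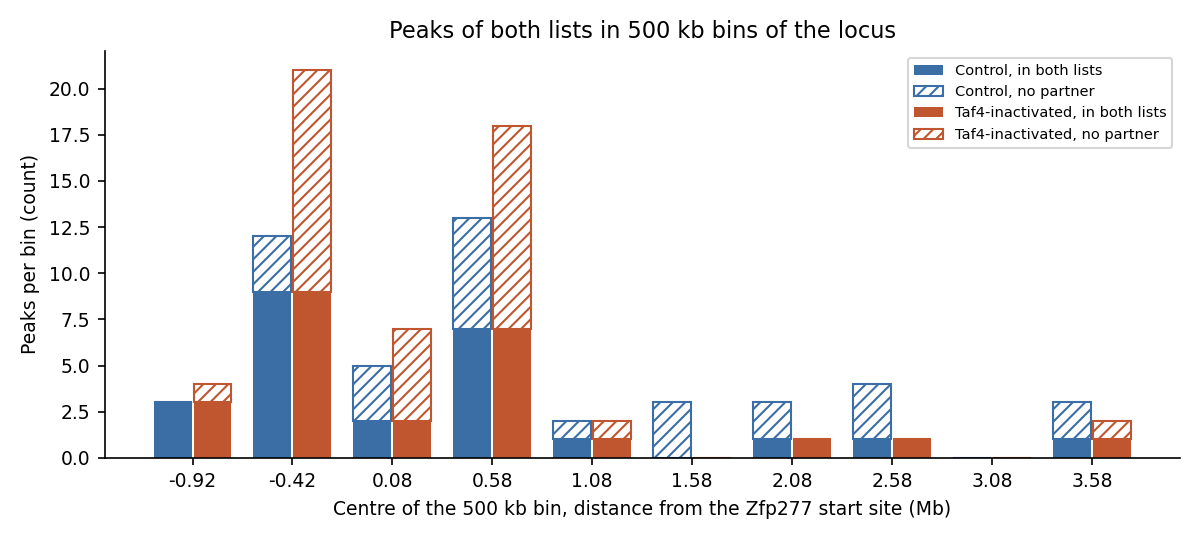
Peaks per 500 kb bin (count) by distance of the bin centre from the Zfp277 start site in Mb; solid bars are peaks present in both lists and hatched bars peaks without a partner. The Taf4-inactivated bars exceed control in the first 4 bins, and control bars exceed them or are equal in the others.

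The ratio of Taf4-inactivated to control peaks in the locus was 1.17. Over 472 windows of 5 Mb with at least 20 peaks in each list the median ratio was 0.802, 90% of windows lay between 0.656 and 1.02, and 3 were above the locus. The locus was not rich in peaks: its 48 control peaks compare with a median of 132 over 519 windows, and its 56 Taf4-inactivated peaks with a median of 108. With a −log10 q of at least 2 the ratio was 1.43 against a median of 1.03, with 5 of 448 windows above. These ratios use the contrast that chose the locus and are given as a description.

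**Figure D3:**
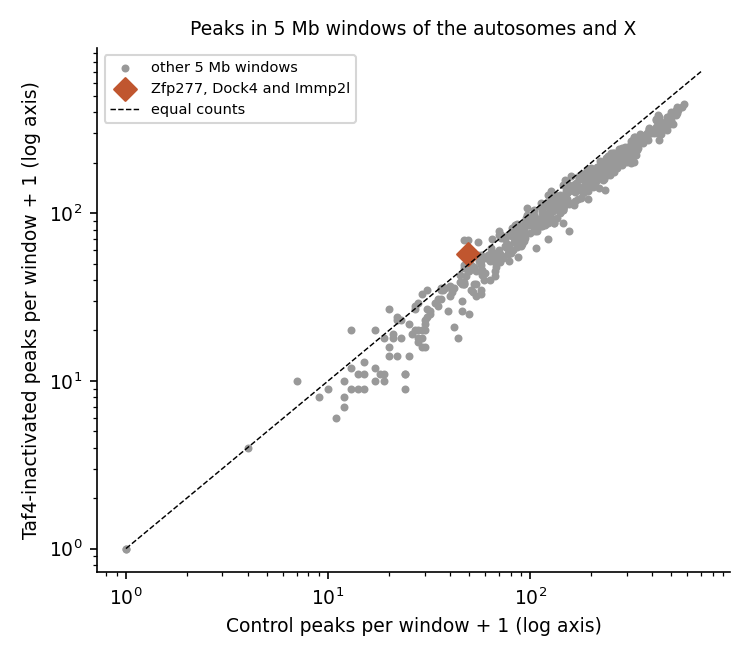
Control (horizontal) and Taf4-inactivated (vertical) peaks plus 1 in each 5 Mb window, on log axes, with the dashed line at equal counts. The locus (diamond), with 48 and 56 peaks, is above the line, while most windows are below it.

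Among the 3 genes, Zfp277 had 1 control and 3 Taf4-inactivated peaks in its body, and all 3 were strong. Dock4 had 8 in each list, of which 5 in each were without a partner, and the start site peak was its sole strong peak. The 7 distal Dock4 peaks had levels of 2.02 to 2.75 in control and of 2.31 to 3.14 after inactivation. Dock4 therefore differed in where its weak peaks were listed, not in their number. With a −log10 q of at least 2, Dock4 kept 4 control and 3 Taf4-inactivated peaks. Immp2l had 9 control and 11 Taf4-inactivated peaks over 1305.9 kb, or 0.689 and 0.842 per 100 kb. Of these Immp2l peaks, 5 and 7 were without a partner, against 52.7% and 39.8% of the whole lists. Of its 7 distal control peaks, 3 lay within 300 kb of the start and 3 more than 600 kb away, the farthest at 1218.7 kb. Of its 9 distal Taf4-inactivated peaks, 8 lay within 300 kb and none more than 600 kb away, with the farthest at 542.3 kb. The Taf4-inactivated peaks of Immp2l were thus gathered toward its start.

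The other genes showed the same kind of difference at Arl4a and Scin. Arl4a, a small GTPase gene, had 2 control and 4 Taf4-inactivated peaks, and Scin had 2 and 4. Ifrd1, a transcriptional co-regulator gene, had 3 in each list, all with partners. Gm7008 had 1 in each. Gm889 had 1 control peak, and Lrrn3, which encodes a leucine-rich repeat protein of neurons and is nested in Immp2l, had none in either list.

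The start sites of Zfp277, Dock4 and Immp2l had peaks in both genotypes. The peak shared by Zfp277 and Dock4 (41172009 to 41173714 in control, 41171898 to 41173450 after inactivation) had a fold of 3.25 in control and 4.10 after inactivation, the 97.9th and 94.5th percentile of the lists. Its pileups were close, 70.5 reads in control and 74.8 after inactivation. Divided by the background level of each library, they gave levels of 5.81 and 10.2, a ratio of 1.75. The Immp2l start site peak (41749854 to 41751549 and 41749591 to 41751482) had folds of 2.86 and 3.51, at percentiles 94.7 and 87.4, with levels of 3.86 and 5.69 and a ratio of 1.48. The median level ratio of start site pairs over the whole lists was 1.503. In rank within the list, both peaks were lower after inactivation, and the Immp2l peak was strong in control alone. In level both were higher, while the Immp2l pileup was lower, 46.8 reads in control and 41.8 after inactivation. The part of the background difference in these level ratios was not tested. The Immp2l ratio was near the median of start site pairs, and that of Zfp277 and Dock4 was just above their upper quartile of 1.73.

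At the other genes, the Arl4a start was at percentile 99.8 in control and 99.2 after inactivation. The start shared by Gm7008 and an internal Ifrd1 transcript start was at 99.5 and 96.7, and the main Ifrd1 start at 83.5 and 64.6. The Scin start site peak was listed in control alone, at 84.6, while all 4 Scin peaks of the other list were distal. It was the sole unpartnered start site peak. Start site peaks were 8 of 48 in control (16.7%, 7.48 to 30.2%) and 7 of 56 after inactivation (12.5%, 5.18 to 24.1%), against 21.7% and 24.6% of the whole lists. Of the 31 unpartnered Taf4-inactivated peaks, 0 were at a start site (0 to 11.2%), against 7.30% of unpartnered peaks in the whole list.

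The stretch held 25 pairs of peaks that overlapped each other best. The percentile of fold was higher after inactivation in 10 of 25 (40%, 21.1 to 61.3%), and in 40.2% of pairs of the whole lists, so that shared peaks as a group held their rank as elsewhere. All 10 were distal, of 18 distal pairs, while 0 of 7 start site pairs were higher. Over the whole lists 43.0% of distal and 35.4% of start site pairs were higher. The median level ratio was 1.40 in the 18 distal pairs and 1.26 in all distal pairs. A single pair of the locus rose by at least 50 percentile points, against 2.22% of all pairs. It was in Immp2l intron 2, where the percentile went from 38.5 (41774134 to 41774916) to 89.8 (41773836 to 41774290) and the level from 2.06 to 4.32. The peaks of this pair had 157 bp in common. It lay on the near side of the strong peaks of intron 3. Lower by at least 50 points were 2 pairs, at 40348308 (74.7 to 17.5), beside a SNORA17 copy, and at 43071572 (76.8 to 19.5), behind Immp2l, against 3.2% of all pairs.

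The 5 pairs with the highest mean percentile were those at the Arl4a start and at the Gm7008 and Ifrd1 start, and 3 distal ones. Between Dock4 and Immp2l the peak at 41643923 was at percentile 99.5 in control and 98.9 after inactivation, with levels of 4.58 and 6.78. The peak at 40676928, behind Arl4a, was at 95.2 and 99.2, with levels of 3.16 and 5.94. The peak in Scin intron 4 (40823616) was at 95.3 and 99.0, with levels of 3.21 and 6.45. These distal regions were thus among the most open in both genotypes.

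**Figure D4:**
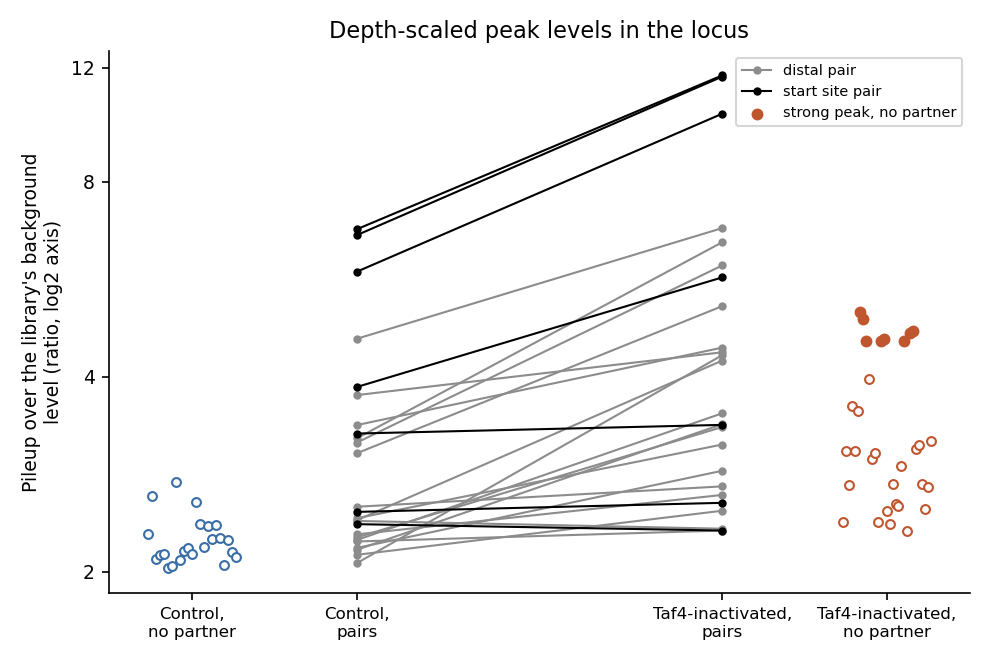
Peak level (pileup over the background level of the library, log2 axis) of the 25 pairs, joined by lines (black, start site; grey, distal), and of peaks without a partner at either side (filled, strong). Unpartnered control peaks reach 2.75, and the 8 strong Taf4-inactivated peaks lie between 4.53 and 5.03.

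Recognition sequences were counted in the central 300 bp of each peak. A GATA sequence was present in 30 of 56 Taf4-inactivated peaks of the locus (53.6%, 39.7 to 67.0%), against 33.6% of the whole list. Among those without a partner it was 20 of 31 (64.5%, 45.4 to 80.8%), against 40.7%. All 8 strong peaks without a partner held one, as did 236 of 376 strong distal peaks without a partner in the whole list (62.8%). These 8, for which the locus was chosen, are part of every Taf4-inactivated locus count of sequences given here and below. Their part in the shares was not tested. In control, 16 of 48 peaks held one (33.3%, 20.4 to 48.4%), against 30.4%. Among distal peaks alone it was 27 of 49 (55.1%) after inactivation, against 38.8%, and 14 of 40 (35%) in control, against 33.8%. In these windows the share was thus higher than in the list after inactivation and near that of the list in control. Over whole peaks, which differ in width, it was 62.5% of Taf4-inactivated and 58.3% of control peaks of the locus, against 51.5% and 50.5% of the lists, so that the genotypes were closer than in the central windows.

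Peaks of the locus had a lower GC content, with medians of 47.8% against 52.3% in the Taf4-inactivated list and 50% against 53.3% in control, and GATA sequences are rich in A and T. The same letters in reversed order were also counted, a choice made after the data had been seen. The reversed pattern was in 14 of 56 Taf4-inactivated peaks (25%, 14.4 to 38.4%) and in 24.8% of the list. Among the 31 without a partner it was in 5 (16.1%), against 30.4%. An AP-1 sequence was in 11 of 56 Taf4-inactivated peaks (19.6%, 10.2 to 32.4%), against 9.38%, and in 6 of 48 control peaks (12.5%, 4.73 to 25.2%), against 6.93%. Its reversed pattern was in 5 of 56 Taf4-inactivated peaks (8.93%), against 4.997%, and in 5 of 48 control peaks (10.4%), against 4.96%. The part of base composition in these shares was not tested further. The HNF4 sequence CAAAGTCCA, bound by nuclear receptors of enterocytes, was in 1 of 56 and 0 of 48, against 1.46% and 0.745% of the whole lists, so that these counts are near the background. A match is a run of letters in these windows and does not show that a factor was bound.

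**Figure D5:**
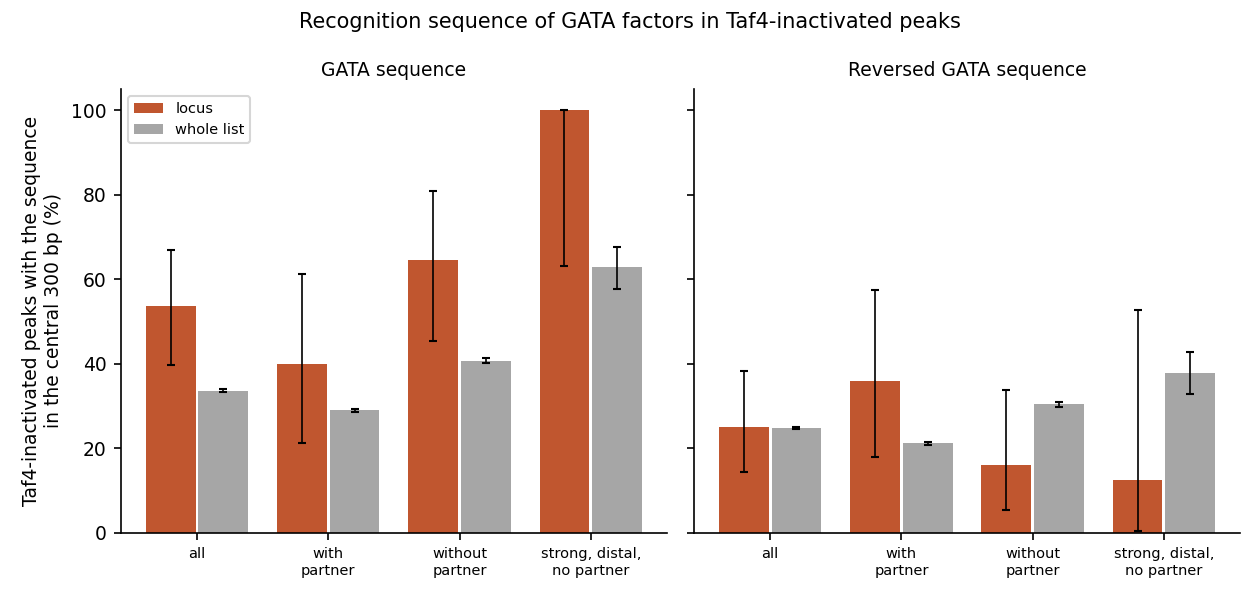
Share of Taf4-inactivated peaks (%) with a GATA sequence (left) or the same letters reversed (right) in the central 300 bp, for the locus and the whole list, with exact 95% intervals for counting error. The GATA share of the locus is 53.6% over all its peaks and 64.5% over those without a partner, while the reversed pattern is at 25% and 16.1%. The 8 strong peaks that chose the locus are counted in all its bars except those with a partner.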

How the data were processed

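The peaks of 1 control library were compared with those of 1 Taf4-inactivated library of enteroids, grouped by genotype as the labels give it. The authors mapped uniquely aligned reads to mm9 with Bowtie 1.0.0 and called broad peaks per library with MACS2 2.1.1. The treatment of duplicate and mitochondrial reads was not given in the sources used here. The deposited fold is a ratio over local background, the deposited −log10 p and −log10 q are each averaged over the peak, and the deposited score is the −log10 q multiplied by 10, without decimals. Since fold depends on library depth and quality, peaks were ranked within each list.

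The members, gene lists and settings were chosen with earlier results of these data known. Named peaks were the strong peaks without a partner, start site peaks of the 3 genes, the 5 pairs of highest mean percentile, pairs differing by at least 50 points and the 3 peaks on either side of the strong limit. Named genes were all coding genes of the stretch. Coordinates were made 1-based, and genes and sequences were read from GENCODE and the genome of the same build (NCBIM37). Background and pileup were solved per peak from fold and Poisson p, which treats averages as values of 1 position. The background level of a library was the 5th percentile among its narrowest peaks (10% of the list). Steps were tested on simulated data with known answers, and 0 of 12 were off by more than 1%. Intervals are exact (Clopper-Pearson) 95% and cover counting error only. Python 3.11.15, numpy 2.4.6, pandas 2.3.3, scipy 1.17.1, pysam 0.24.0 and matplotlib 3.10.9 were used. Alternatives changed the q threshold, overlap, ranking value, strong limit, bounds, start site distance and sequence window.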

Additional observations from a re-analysis of the deposited data

How the results depend on the processing

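With 1 library per genotype no left-out library and no test was possible, and every value describes these 2 libraries. No paired analysis was possible because each genotype had 1 library. Of the alternatives for the main values, 45 stayed within the interval of the value or within 1.5 times the count or difference. A further 19 moved outside these limits, and 1 was reversed in direction. The unpartnered share was 7.44 points higher in Taf4-inactivated than in control peaks of the locus, and 16.1 points higher at a −log10 q of at least 2. Requiring 5 in both lists left 0% of control and 60.9% of Taf4-inactivated peaks without a partner, a difference of 60.9 points, and raised the peak ratio to 2.56. Over the 221 windows of 5 Mb with at least 20 peaks in each list at that threshold, medians were 8.16%, 51.3% and 1.91. Much of this move was thus shared by those windows. The locus, with 9 control peaks at that threshold, was not among them. Requiring an overlap of 50% of both peaks gave 66.7% and 71.4%, a difference of 4.76 points. The difference was 14 points from 41 to 42 Mb. Taken apart after the data had been seen, 40 to 42 Mb gave 21.6 points. From 42 to 45 Mb, 11 of 15 control peaks (73.3%) and 2 of 6 Taf4-inactivated peaks (33.3%) were without a partner. This difference of -40 points was opposite to that of the whole locus. The whole lists, with 52.7% and 39.8%, differed in the same direction as this rear part. The strong Taf4-inactivated peaks without a partner numbered 2 among the top 5%, 1 by −log10 p, 5 among the top 5000 and 5 within the span of the 3 genes, and in control they numbered 5 among the top 25%. In whole peaks, 58.3% of control and 62.5% of Taf4-inactivated peaks held a GATA sequence. The reversed patterns were in 25% (GATA) and 8.93% (AP-1) of Taf4-inactivated peaks. The background level differed between the libraries, and its part in the weak peaks was not tested.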

Other observations

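The stretch holds 3 copies of SNORA17, an H/ACA small nucleolar RNA with many annotated copies in the mouse. A peak lay within 1 kb of 3 copies in control and of 2 after inactivation. Both counts came from the same 2 pairs of peaks, so no peak beside a copy was lost from the list. Over the 611 copies of the annotation, 65.0% (61.0 to 68.8%) and 43.0% (39.1 to 47.1%) had a peak within 1 kb. Over all 1552 annotated small nucleolar RNAs it was 35.8% and 26.0%. The pair beside the copy at 40348308 fell by 57.2 percentile points, while its level was 2.37 in control and 2.31 after inactivation. The pair beside the copy inside Immp2l (42074016) fell by 41.2 points, with levels of 2.47 and 2.55. Copies that are near-identical can lose reads that do not map uniquely, and the part of mapping in these values was not tested.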
